A study of Mus musculus with 9 samples.

Results

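Described here are 45 genes of autophagy and the lysosome in dissected midbrain of mice with 0, 1 or 2 floxed alleles of Dot1l, the gene for the histone methyltransferase of H3K79. The 45 were chosen by gene symbol from the 47729 gene identifiers in the count files, and they comprised 25 genes that build or load the autophagosome, 19 genes of the lysosomal membrane and lumen, and the transcription factor Tfeb. All mice were P180 animals on a C57/Bl6 background that carried Pitx3-Cre/+ and Rosa-lox-stop-lox-Yfp, the controls included. The control genotype was Dot1l(+/+), and the floxed genotypes were Dot1l(fl/+) and Dot1l(fl/fl). Each was measured in 3 RNA-seq libraries made from tissue of 3 pooled mice, so that n counts pools. The series description speaks of sorted cells at an embryonic stage, but the label of each of the 9 libraries gives P180 and dissection, and they were taken as such.

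Pitx3-Cre acts in midbrain dopamine neurons, whereas the dissected tissue also holds glia and other neurons. Dopamine neuron markers were present in every pool, with sums of 738 to 825 CPM (counts scaled to a common library size after TMM normalization) over 10 genes in controls, 594 to 739 in Dot1l(fl/+) and 581 to 611 in Dot1l(fl/fl), beside 10747 to 12300 CPM for 10 oligodendrocyte markers. In such bulk tissue fewer cells of a type and less RNA per cell cannot be told apart. The libraries held 16422135 to 28403218 counts. The targeted gene itself stood at 85.2, 80.2 and 85.1 CPM in control pools, 84.2, 60.6 and 75.6 in those of Dot1l(fl/+), and 82.1, 73.9 and 82.9 in those of Dot1l(fl/fl), which overlapped; a count over the whole gene in whole tissue does not measure loss of the floxed part in dopamine neurons. In Dot1l(fl/+), pools 2 and 3 had 180 and 585 CPM of 6 choroid plexus markers against 66.6 to 155 in controls and 40.3 to 46.2 in Dot1l(fl/fl), and pools 1 and 3 had 125 and 58.2 CPM of 7 hypothalamus markers against 1.67 to 9.55. The count of members with a low p-value in Dot1l(fl/+) against controls is therefore also given without each of these pools. Fold changes without 1 of them are given for some members only.

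Autophagy encloses cytoplasm, protein aggregates or worn mitochondria in a double membrane, the autophagosome, which then fuses with the lysosome, where acid hydrolases digest the cargo. The ULK1 kinase complex starts the process, a class III PI3-kinase complex marks the site, lipid transfer proteins supply membrane, and conjugation enzymes attach proteins of the ATG8 family to the growing membrane, where cargo receptors dock. Many lysosomal genes share a promoter element, the CLEAR motif, which is bound by TFEB. Neurons depend on this route because they do not dilute waste by division, and inherited loss of several lysosomal enzymes causes storage disease of the brain.

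In control midbrain, every one of the 45 genes was expressed, and all passed the filter on low counts that kept 17671 genes. Levels are compared between genes per kilobase of exon, as CPM per kb. The highest was Psap, the precursor of the saposins that help hydrolases act on sphingolipids, at 454 ± 5.65 CPM per kb (SD, n = 3). Next were Gabarapl1, an ATG8 protein, at 215 ± 1.75, the aspartyl protease cathepsin D (Ctsd) at 136 ± 2.05 and the membrane glycoprotein Lamp1 at 131 ± 2.42. Sqstm1, the cargo receptor p62, stood at 115 ± 4.81 CPM per kb. The lowest were Atg4a, a protease that processes ATG8 proteins, at 1.83 ± 0.221, Tfeb at 2.32 ± 0.270 and Cln3, a lysosomal membrane protein, at 2.62 ± 0.133. The median over the members was 13.7 CPM per kb, with 13.6 for the autophagosome genes and 17.8 for the lysosome genes, against 4.57 over all tested genes that had a length.

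**Figure D1:**
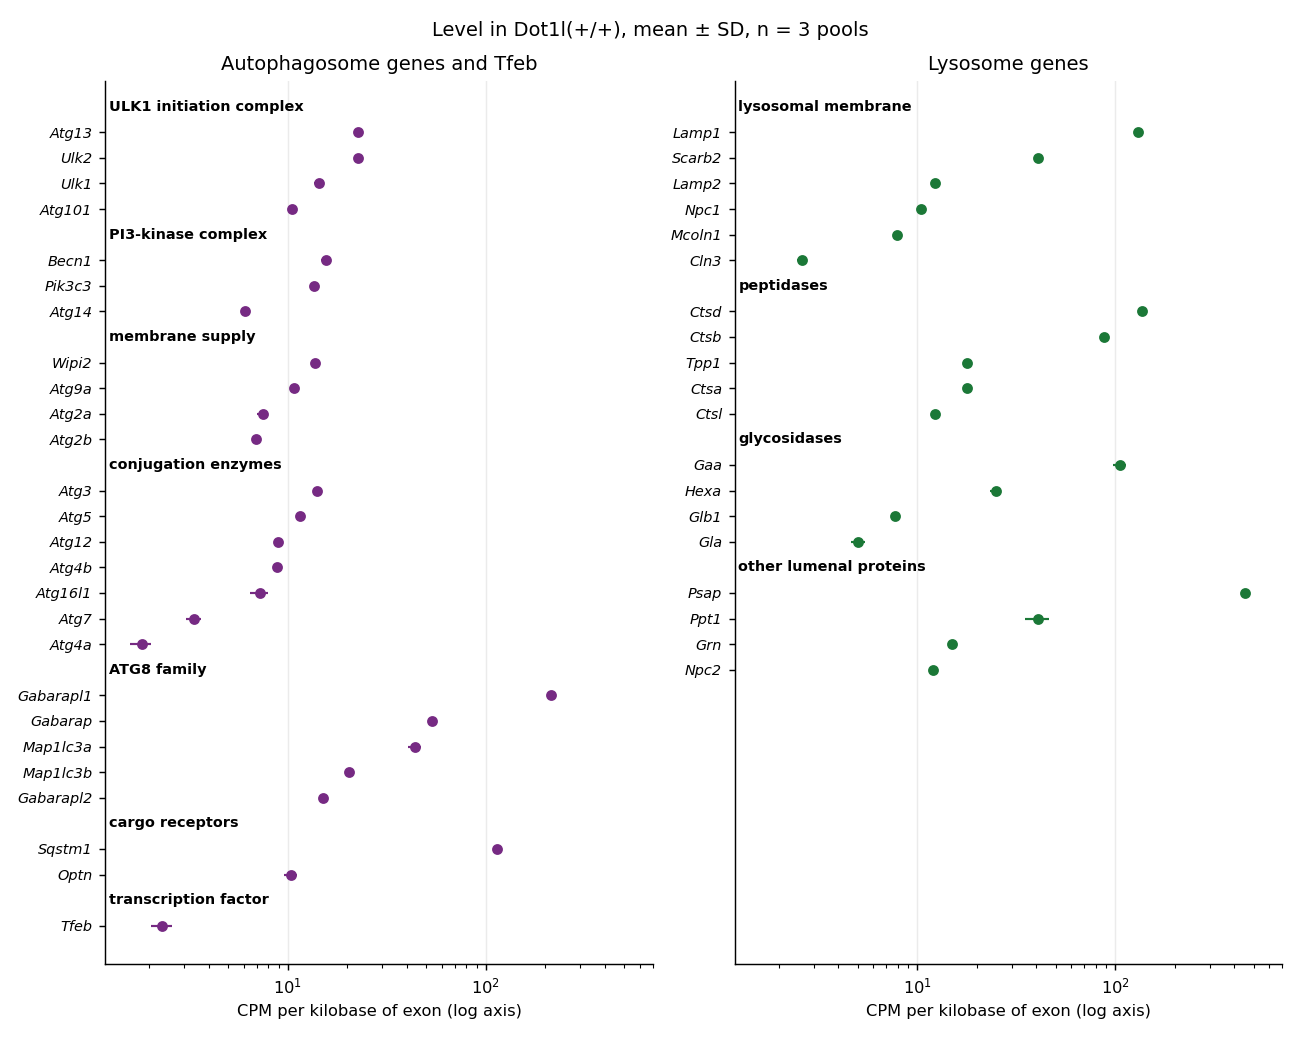
Level of each of the 45 genes in Dot1l(+/+) midbrain, in CPM per kilobase of exon on a log axis, by role; points are means and bars SDs of 3 pools. Levels run from 1.83 for Atg4a to 454 for Psap, and within the ATG8 family from 15.1 for Gabarapl2 to 215 for Gabarapl1.

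The CLEAR element was looked for as TCACGTGA, and the wider E-box as CACGTG, in RefSeq promoter windows of GRCm38.p6 that run from 250 bases before to 50 bases after a transcription start. Each motif is its own reverse complement, so a match counts on both strands, and every TCACGTGA holds a CACGTG. Windows were given for 38 of the 45 members; none was given for Becn1, Pik3c3, Atg12, Atg16l1, Map1lc3a, Npc1 and Ctsb. An E-box lay in the window of 9 of 17 lysosome genes and 4 of 20 autophagosome genes, and in 8.09% of all 27025 genes with a window. TCACGTGA lay in 5 of the 17 lysosome genes (Mcoln1, Cln3, Ctsa, Ctsd and Gla), in 1 of the 20 autophagosome genes (Atg3) and in 1.12% of all genes. Shown are stretches of 60 bases upstream of the start for Lamp1, which had 4 E-boxes, Ctsd, the most abundant member with TCACGTGA, the lysosomal calcium channel gene Mcoln1, and Atg3, the only autophagosome gene with TCACGTGA. They are read 5′ to 3′ in the direction of the gene, with E-boxes and TCACGTGA in capitals; Lamp1 is at chr8:13159096-13159155 (plus strand), Ctsd at chr7:142387893-142387952 (minus strand), Mcoln1 at chr8:3500447-3500506 (plus strand) and Atg3 at chr16:45158731-45158790 (plus strand).
Lamp1: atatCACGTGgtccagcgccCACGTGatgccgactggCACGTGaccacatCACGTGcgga
Ctsd: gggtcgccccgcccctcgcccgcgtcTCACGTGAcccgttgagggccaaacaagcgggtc
Mcoln1: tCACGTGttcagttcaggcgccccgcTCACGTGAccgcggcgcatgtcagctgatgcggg
Atg3: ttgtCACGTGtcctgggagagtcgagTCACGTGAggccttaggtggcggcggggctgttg

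**Figure D2:**
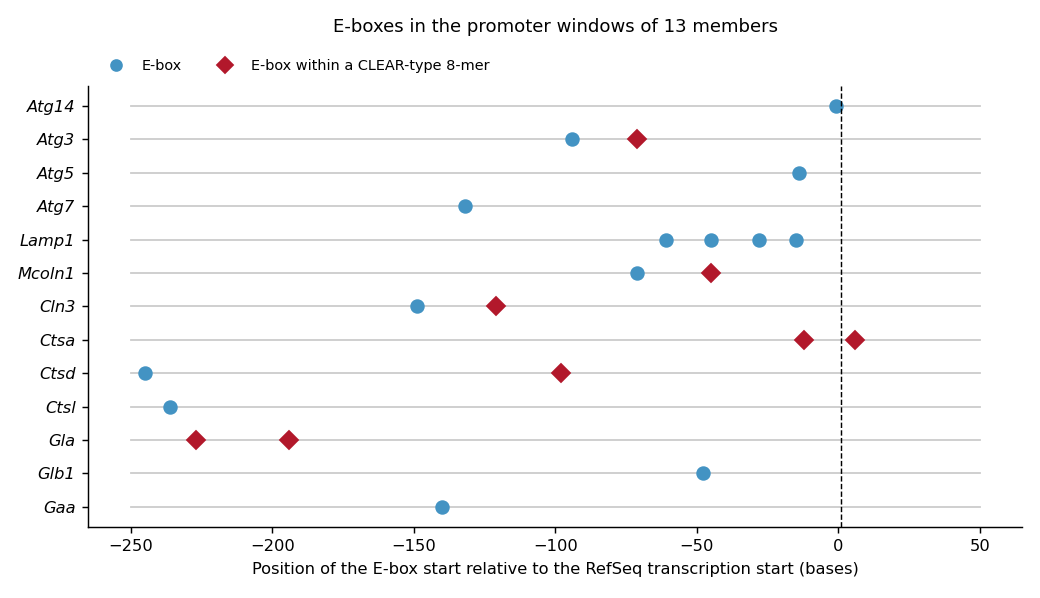
Positions of E-boxes in the RefSeq promoter windows of the 13 members that held one, in bases from the transcription start (dashed line); circles are E-boxes, diamonds E-boxes inside TCACGTGA. The 9 lower rows are lysosome genes and the 4 upper rows autophagosome genes, and Lamp1 alone has 4 matches.

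The comparison of Dot1l(fl/+) with Dot1l(+/+) asks what 1 floxed allele goes with. No member passed the adjusted threshold of 0.05 in edgeR's quasi-likelihood test, where 0 of 17671 genes were called (0%), and the lowest adjusted p-value of a member was 0.541. The members nevertheless leaned to higher values: 30 of 45 had a log2 fold change above 0, with a median of 0.043, against 48.9% of all tested genes and a median of -0.0034. With each gene's length and GC share entered as an offset, 34 were above 0 with a median of 0.067, against a median of 0.0067 over all genes. Without control pool 3, 29 were above 0 with a median of 0.034, against -0.00037 over all genes. With an unadjusted p-value under 0.05 were 6 members, all higher, where 4.3% of all genes were higher and 4.09% lower by the same rule. The 6 were Map1lc3a and Gabarapl1 of the ATG8 family and Ctsd, Ctsl, Hexa and Npc2 of the lysosomal lumen. In 10 members all 3 Dot1l(fl/+) pools lay above all 3 control pools and in 0 all lay below, where this held for 6.84% and 6.47% of all genes. The count of 6 fell to 1 without control pool 3, to 3 without Dot1l(fl/+) pool 2 and to 2 without Dot1l(fl/+) pool 3, the pool rich in choroid plexus markers, and it was 11 without Dot1l(fl/+) pool 1. Within Dot1l(fl/+), pool 2 differed most from the others over all genes. Its chi-square per degree of freedom was 15.2 against pool 1 and 16.5 against pool 3, beside 8.26 between pools 1 and 3. DESeq2 called 7 genes and no member on all 9 libraries, and on the libraries of these genotypes alone it called 45 genes, 1 of them a member, Map1lc3a (adjusted p = 0.0201).

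**Figure D3:**
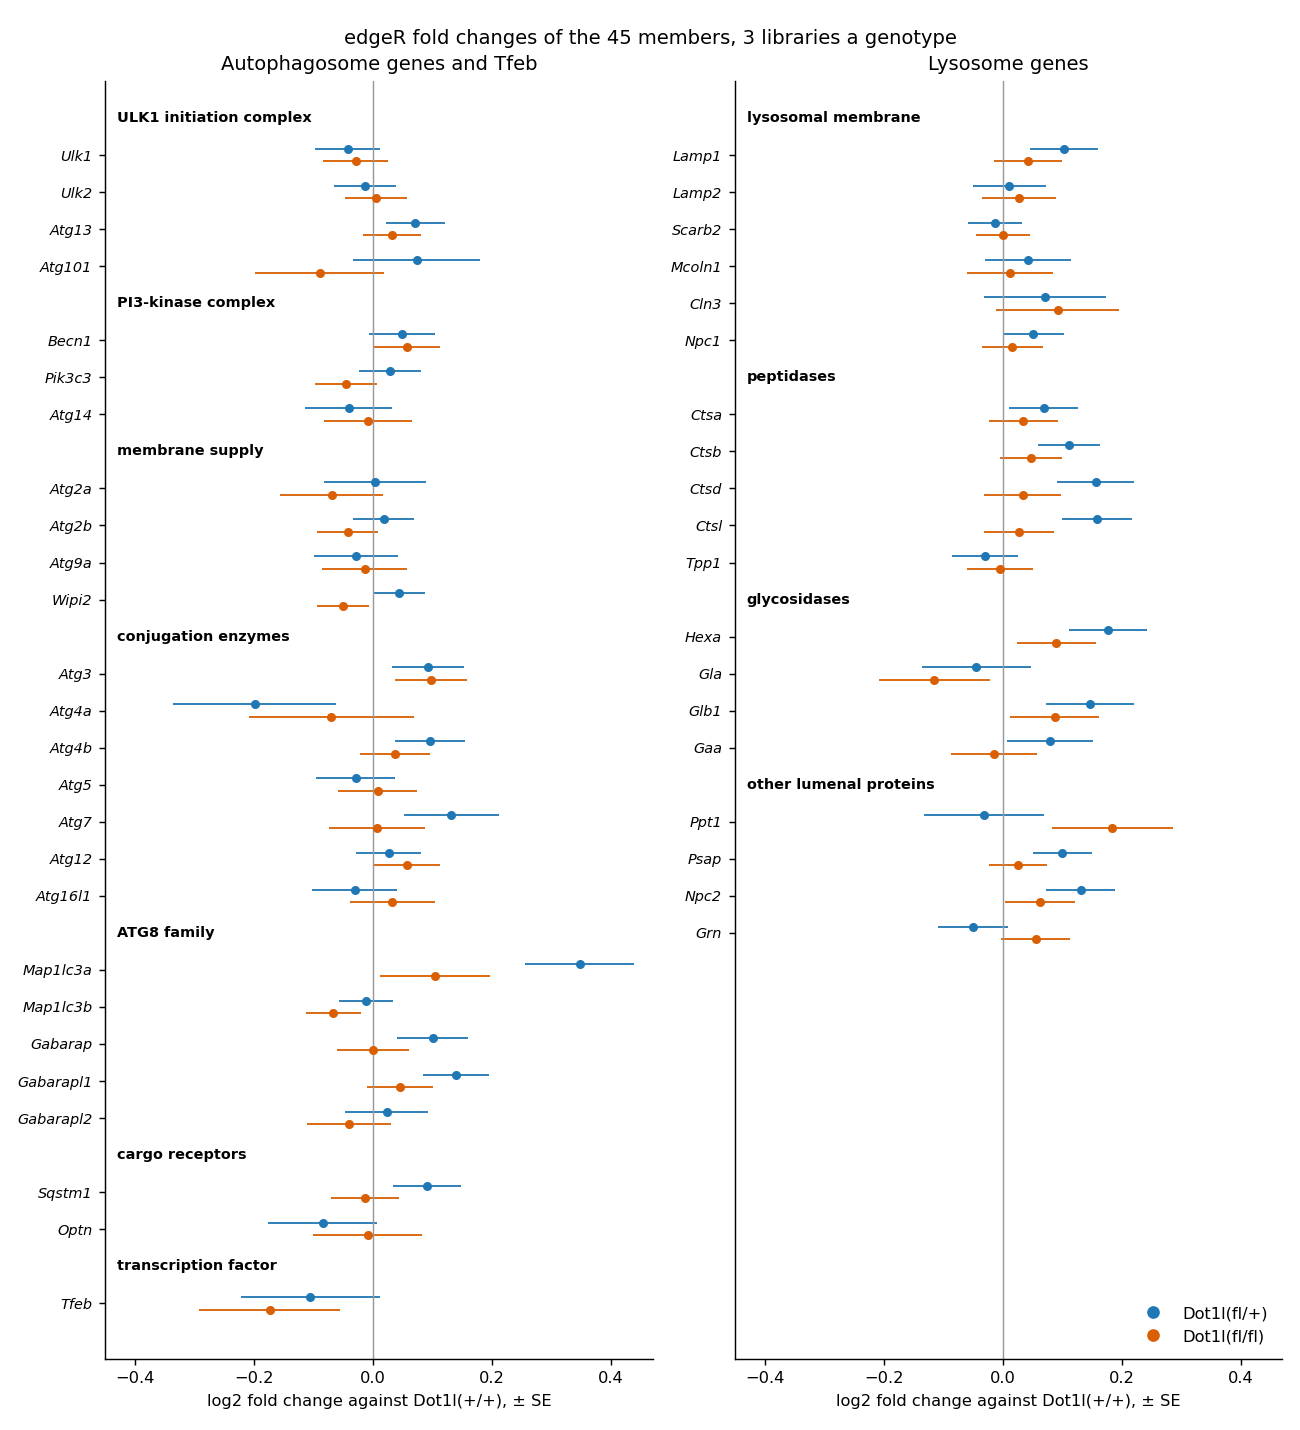
Log2 fold changes of the 45 members against Dot1l(+/+) with their standard errors, from edgeR, in Dot1l(fl/+) (blue) and Dot1l(fl/fl) (orange), by role. Map1lc3a in Dot1l(fl/+), at 0.35, is farthest from 0, and no member passed an adjusted p-value of 0.05 in either comparison.

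Among the genes that start autophagosomes, values stayed close to controls. For Ulk1, the kinase that starts the process, controls had 98.6, 90.2 and 90.4 CPM, Dot1l(fl/+) 90.4, 86.6 and 93.8, and Dot1l(fl/fl) 94.4, 90.8 and 88.2. The groups overlapped, and the log2 fold changes were -0.04 ± 0.05 (SE) and -0.03 ± 0.05. Becn1, the scaffold of the PI3-kinase complex, had 115, 109 and 105 CPM in control pools, 114, 115 and 112 in those of Dot1l(fl/+), and 107, 120.1 and 116 in those of Dot1l(fl/fl), which overlapped as well. For Atg13, the adaptor of the ULK1 complex, controls had 102, 102 and 93.7 CPM, Dot1l(fl/+) 103, 104 and 105, and Dot1l(fl/fl) 101, 98.7 and 104. All Dot1l(fl/+) pools were thus above the controls, the nearest by less than 1 CPM (log2 fold change 0.07, unadjusted p = 0.171, and 0.03 without control pool 3, the lowest control). The other members of these complexes, Ulk2, Atg101, Pik3c3 and Atg14, had log2 fold changes between -0.09 and 0.07 against controls in both genotypes.

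Of the proteins that supply membrane, Wipi2, which binds the PI3-kinase lipid and recruits the conjugation machinery, had pools on opposite sides of the controls. Controls had 145, 144 and 144 CPM, Dot1l(fl/+) 149, 146 and 151, and Dot1l(fl/fl) 141, 141 and 136. The Dot1l(fl/+) pools were all above and the Dot1l(fl/fl) pools all below a control range of little more than 1 CPM, yet edgeR's quasi-likelihood test gave unadjusted p-values of 0.339 (log2 fold change 0.04) and 0.267 (-0.05). With the length and GC offset these log2 fold changes were 0.07 and -0.03, and without pool 3 of Dot1l(fl/fl) the latter was -0.03. The lipid transfer genes Atg2a and Atg2b and the scramblase Atg9a overlapped with controls in both genotypes.

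The conjugation enzymes attach ATG12 to ATG5 and ATG8 proteins to lipid. Atg3, which carries the ATG8 proteins in their last step, had 44.2, 45.2 and 44.2 CPM in control pools, 45.5, 47.6 and 49.2 in those of Dot1l(fl/+), and 50.1, 47.6 and 45 in those of Dot1l(fl/fl). Its Dot1l(fl/+) pools were all above controls (log2 fold change 0.09 ± 0.06, unadjusted p = 0.151, and 0.16, unadjusted p = 0.0351, with the length and GC offset). For Atg12, the ubiquitin-like protein that is joined to ATG5, controls had 68.7, 68.8 and 70.3 CPM, Dot1l(fl/+) 65.5, 74.4 and 71.5, and Dot1l(fl/fl) 72.4, 71.1 and 72.7. It was the only member with all Dot1l(fl/fl) pools above controls, at a log2 fold change of 0.06 (unadjusted p = 0.325). The remaining enzymes, Atg4a, Atg4b, Atg5, Atg7 and Atg16l1, overlapped with controls in both floxed genotypes, and the counts of Atg4a (3.74 to 5.54 CPM) are uncertain because its pseudogene copy Atg4a-ps also drew reads.

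The ATG8 proteins coat the autophagosome and bind cargo receptors, and Map1lc3a, the gene for LC3A, had the largest fold change of the 45 members in Dot1l(fl/+). Map1lc3a lies at chr2:155276297-155278073 on the plus strand (GRCm38, GENCODE M21). Controls had 47.6, 55.5 and 52.4 CPM, Dot1l(fl/+) 62.2, 66.6 and 69.0, and Dot1l(fl/fl) 61.9, 58.0 and 46.7. All Dot1l(fl/+) pools were above the controls, whereas the Dot1l(fl/fl) pools ran from below the lowest to above the highest control. Against controls, the Dot1l(fl/+) pools were higher by a log2 fold change of 0.35 ± 0.09 (27.2%; unadjusted p = 0.0022, adjusted p = 0.541 in edgeR), and it kept an unadjusted p-value under 0.05 in all 18 alternatives, with adjusted p-values from 0.0004 without a filter on low counts to 0.867 without control pool 3.

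Gabarapl1, at chr6:129533160-129542346, had 431, 436 and 429 CPM in control pools, 449, 498 and 479.6 in those of Dot1l(fl/+), and 439, 469 and 428 in those of Dot1l(fl/fl). The Dot1l(fl/+) pools lay above the narrow control range, with a log2 fold change of 0.14 ± 0.05 (unadjusted p = 0.0246, adjusted p = 0.541 in edgeR). With the length and GC offset it was 0.09 (unadjusted p = 0.0769), and the unadjusted p-value was under 0.05 in 12 of 18 alternatives. Map1lc3b, the gene for the widely used marker LC3B, had 153, 156 and 154 CPM in control pools, 150.2, 159 and 149.7 in those of Dot1l(fl/+), and 147, 144 and 151 in those of Dot1l(fl/fl). Here the Dot1l(fl/fl) pools were all below controls, by a log2 fold change of -0.07 ± 0.05 (unadjusted p = 0.168). For Gabarap, controls had 100.4, 98.5 and 97.2 CPM, Dot1l(fl/+) 97.8, 114 and 105, and Dot1l(fl/fl) 97.0, 104 and 94.6, with overlap on both sides. Gabarapl2 overlapped too.

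Sqstm1, which links ubiquitinated cargo to ATG8 proteins and is itself digested by autophagy, had 390.5, 398 and 367 CPM in control pools, 391, 436 and 402 in those of Dot1l(fl/+), and 380.2, 396 and 367 in those of Dot1l(fl/fl). The groups overlapped, with log2 fold changes of 0.09 ± 0.06 and -0.01 ± 0.06. The receptor Optn also overlapped (log2 fold changes -0.09 and -0.0091). For Tfeb, the factor that drives lysosomal genes through the CLEAR element, controls had 14.9, 11.98 and 12.6 CPM, Dot1l(fl/+) 11.9, 12.4 and 12.4, and Dot1l(fl/fl) 13.4, 10.4 and 11.04. Its pools overlapped, and with log2 fold changes of -0.11 ± 0.12 and -0.17 ± 0.12 (95% confidence interval of the latter, -0.43 to 0.08) the data leave room for a lower level as well as for no difference. Control pool 1 was the highest of the 9 libraries, and without it the log2 fold changes were -0.0096 and -0.078. Without control pool 2 the former was -0.16, and without pool 1 or pool 2 of Dot1l(fl/fl) the latter was -0.29 (unadjusted p = 0.0324 in edgeR) or -0.095.

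**Figure D4:**
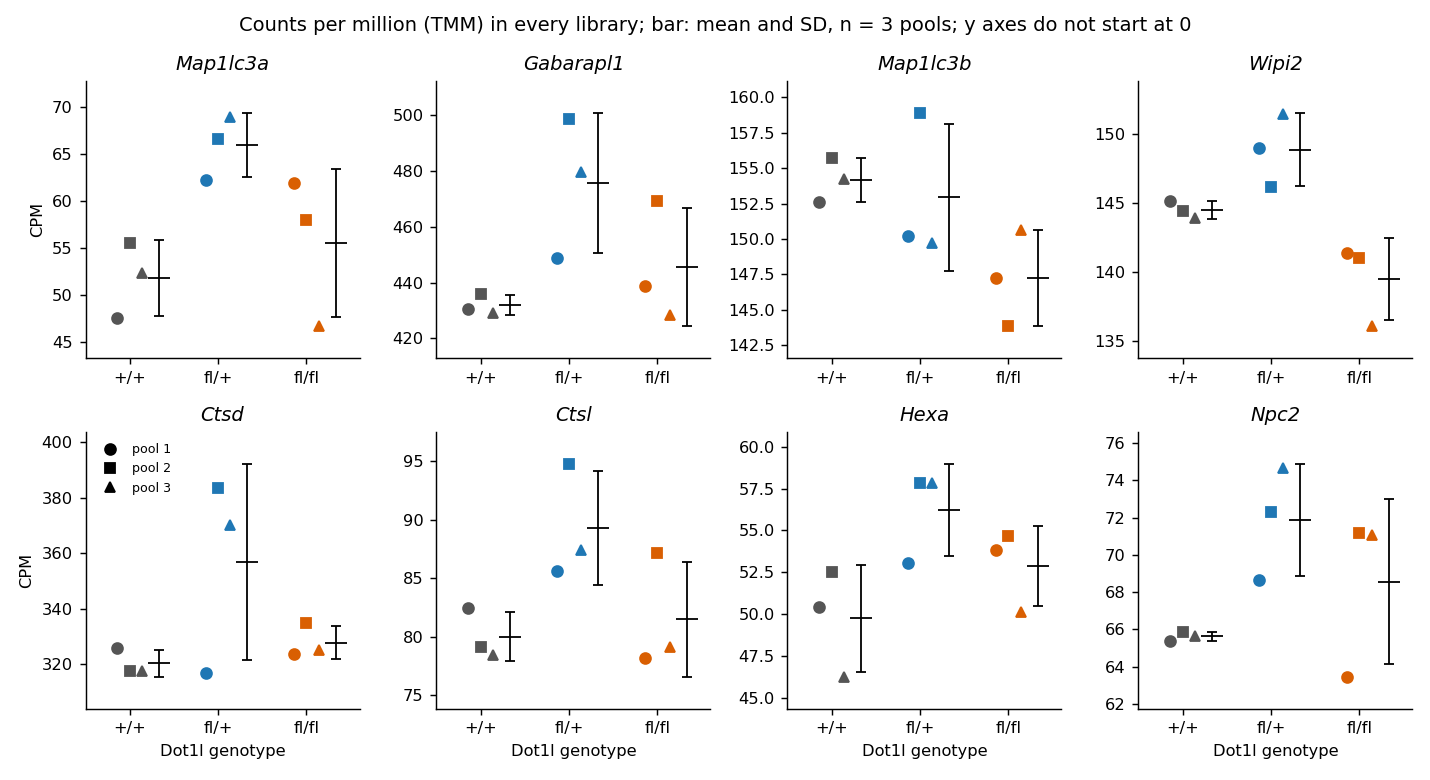
CPM of 8 members in each pool, by genotype; symbols mark pool numbers, and the bar gives the mean and SD of 3 pools. In Dot1l(fl/+), Map1lc3a (62.2 to 69.0 CPM), Gabarapl1, Wipi2, Ctsl, Hexa and Npc2 lie wholly above the controls, while Ctsd pool 1 (317 CPM) lies just below them; the y axes do not start at 0.

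Among the 5 lysosomal peptidases, 4 had a log2 fold change above 0 with 1 floxed allele, and their median was 0.11. Ctsd, at chr7:142375911-142388038, had 326, 318 and 318 CPM in control pools, 317, 384 and 370.3 in those of Dot1l(fl/+), and 324, 335 and 325 in those of Dot1l(fl/fl). Pool 1 of Dot1l(fl/+) stood at the control level and pools 2 and 3 above it (log2 fold change 0.16 ± 0.06, unadjusted p = 0.0300, adjusted p = 0.557 in edgeR). Without pool 1 the log2 fold change was 0.23 and without pool 2 it was 0.10 (unadjusted p = 0.125); the unadjusted p-value was under 0.05 in 12 of 18 alternatives. For cathepsin L (Ctsl), a cysteine protease at chr13:64359337-64370890, controls had 82.4, 79.1 and 78.5 CPM, Dot1l(fl/+) 85.6, 94.8 and 87.4, and Dot1l(fl/fl) 78.2, 87.1 and 79.2. All Dot1l(fl/+) pools were above controls (0.16 ± 0.06, unadjusted p = 0.0176, adjusted p = 0.541 in edgeR). Without Dot1l(fl/+) pool 2 the log2 fold change was 0.11, and the unadjusted p-value was under 0.05 in 16 of 18 alternatives. Cathepsin B (Ctsb) had a log2 fold change of 0.11 with an unadjusted p-value of 0.0511, and cathepsin A (Ctsa) and Tpp1 had 0.07 and -0.03. Reads of Ctsb and Ctsa may include some of antisense neighbours that share exon bases (Fdft1 and Pltp), since the strand setting of the counting is not given in the sources used here.

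Glycosidases trim sugars from glycolipids and glycogen. Hexa, the alpha subunit of beta-hexosaminidase, at chr9:59539540-59565109, had 50.5, 52.6 and 46.3 CPM in control pools, 53.1, 57.8 and 57.8 in those of Dot1l(fl/+), and 53.8, 54.7 and 50.2 in those of Dot1l(fl/fl). The Dot1l(fl/+) pools were all above controls, the lowest of them by less than 1 CPM (log2 fold change 0.18 ± 0.07, unadjusted p = 0.0179, adjusted p = 0.541 in edgeR). With the length and GC offset, or without control pool 3, the log2 fold change was 0.13. Its unadjusted p-value was under 0.05 in 16 of 18 alternatives. For Glb1, the beta-galactosidase, controls had 23.3, 23.2 and 23.1 CPM, Dot1l(fl/+) 25.7, 24.7 and 26.7, and Dot1l(fl/fl) 26.2, 23.0 and 24.7. The Dot1l(fl/+) pools lay above a tight control range (0.15 ± 0.07, unadjusted p = 0.0690), although Glb1 shares 5.49% of its exon bases with Tmppe on the same strand, a gene at 28.4 CPM, and how shared reads were divided is not given in the sources used here. Gla and Gaa overlapped, with log2 fold changes of -0.04 and 0.08.

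Npc2 carries cholesterol inside the lysosome to the membrane protein NPC1. It lies at chr12:84754562-84773152, and controls had 65.4, 65.9 and 65.6 CPM, Dot1l(fl/+) 68.7, 72.3 and 74.7, and Dot1l(fl/fl) 63.5, 71.2 and 71.1. All Dot1l(fl/+) pools and 2 of 3 Dot1l(fl/fl) pools were above controls, with log2 fold changes of 0.13 ± 0.06 (unadjusted p = 0.0417, adjusted p = 0.574 in edgeR) and 0.06 ± 0.06. The former was 0.10 without Dot1l(fl/+) pool 3, and its unadjusted p-value was under 0.05 in 11 of 18 alternatives. Psap, the most abundant member, had 1246, 1262 and 1232 CPM in control pools, 1294, 1361 and 1355 in those of Dot1l(fl/+), and 1296, 1279 and 1233 in those of Dot1l(fl/fl). Its Dot1l(fl/+) pools were all above controls (0.10 ± 0.05, unadjusted p = 0.0609). Grn, the gene for progranulin, had 53.9, 49.9 and 52.4 CPM in control pools, 48.7, 49.9 and 52.3 in those of Dot1l(fl/+), and 56.4, 52.8 and 53.1 in those of Dot1l(fl/fl), and overlapped with controls in both genotypes.

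In Dot1l(fl/+), genes of the lysosomal membrane were closer to controls than those of the lumen, at medians of 0.047 (6 genes) and 0.10 (13 genes) in log2 fold change; the difference between these groups was not tested. For Lamp1, controls had 350.0, 357 and 345 CPM, Dot1l(fl/+) 349, 402 and 379, and Dot1l(fl/fl) 352, 373 and 359. Pools 2 and 3 of Dot1l(fl/+) were above controls and pool 1 within them (0.10 ± 0.06, unadjusted p = 0.0943). Lamp2, Scarb2, Mcoln1, Cln3 and the cholesterol exporter gene Npc1 had log2 fold changes between -0.01 and 0.07.

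Set side by side, the lysosome genes leaned higher than the autophagosome genes in both genotypes. In Dot1l(fl/+), 14 of 19 lysosome genes and 16 of 25 autophagosome genes were above 0, with medians of 0.071 and 0.026, and the lysosome median was 0.039 without control pool 3 and the autophagosome median 0.040 without control pool 1, 0.043 without Dot1l(fl/+) pool 1 and 0.041 with the length and GC offset. In Dot1l(fl/fl), 16 of 19 lysosome genes and 12 of 25 autophagosome genes were above 0, with medians of 0.034 and -0.0084, and leaving out 1 pool took the latter from -0.034 (without control pool 3) to 0.013 (without control pool 2). These comparisons share the control pools, and the medians are a description without a test. By pool, the mean log2 difference of the lysosome genes from the control mean was 0.018, 0.028 and -0.046 in control pools, 0.037, 0.084 and 0.071 in those of Dot1l(fl/+), and 0.064, 0.036 and 0.0077 in those of Dot1l(fl/fl). Every Dot1l(fl/+) pool was above all controls, and pool 3 of Dot1l(fl/fl) was not. Lysosome genes with an E-box in the promoter window had a median log2 fold change of 0.079 (9 genes) with 1 floxed allele and those without one -0.00093 (8 genes), while in Dot1l(fl/fl) the medians were 0.034 and 0.041. For autophagosome genes with (4 genes) and without an E-box (16 genes), they were 0.031 and 0.020 in Dot1l(fl/+). In Dot1l(fl/fl) they were 0.0071 and -0.022. A match is a description of the sequence, and these differences were not tested.

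Microglia are rich in lysosomes, and within Dot1l(fl/+) their markers were lowest in the pool whose lysosome genes were lowest. The 12 microglia markers, none of which was at 0, summed to 287 to 311 CPM in control pools, to 282, 341 and 334 in those of Dot1l(fl/+), and to 313 to 345 in those of Dot1l(fl/fl). Pool 1 of Dot1l(fl/+), where Ctsd and Lamp1 were at the control level, had the lowest microglia sum of the 9 libraries, and pools 2 and 3 were above all controls. In controls pool 3 had the highest microglia sum and the lowest mean of the lysosome genes, and in Dot1l(fl/fl) pool 1 had the lowest microglia sum and the highest mean of the lysosome genes. Over the 12 the median log2 fold change was 0.13 in Dot1l(fl/+), with 0 under an unadjusted p-value of 0.05, and 0.14 in Dot1l(fl/fl), with 3 higher (Csf1r, Aif1 and Trem2), or 25% of the list against 3.93% of all genes. The 10 oligodendrocyte markers had medians of 0.097 and -0.025, with 3 higher in Dot1l(fl/+) by the same rule (Mog, Cnp and Cldn11), or 30% against 8.39% of all genes. The 7 neuron markers summed to 5516, 5123 and 5354 CPM in Dot1l(fl/+), all below the 5558 to 5676 of controls, and to 5597 to 6000 in Dot1l(fl/fl). The part of these cells in the levels of the lysosome genes was not tested.

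**Figure D5:**
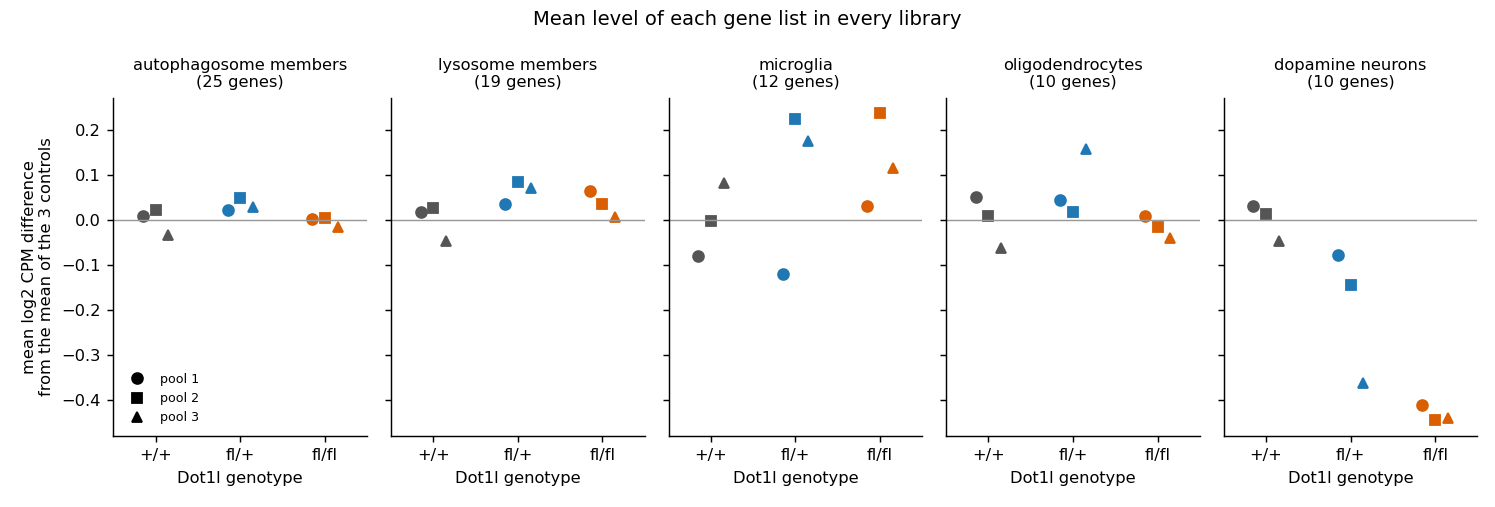
Mean log2 CPM difference from the control mean for the autophagosome and lysosome members and for markers of microglia, oligodendrocytes and dopamine neurons, in each pool. The lysosome members lie at 0.037 to 0.084 in Dot1l(fl/+), while the microglia markers run from -0.12 in pool 1 to 0.22 in pool 2 of that genotype and the dopamine neuron markers lie at -0.41 to -0.44 in Dot1l(fl/fl).

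The comparison of Dot1l(fl/fl) with Dot1l(+/+) asks what 2 floxed alleles go with. No member had an unadjusted p-value under 0.05 by edgeR, where 2.21% of all genes were higher and 1.72% lower by that rule, and 0 of 17671 genes passed the adjusted threshold (0%). Of the 45, 28 were above 0 with a median of 0.013, against 50.4% and 0.00090 over all genes. Without control pool 3 the median turned to -0.0023, with 21 above 0, and without control pool 2 it was 0.030, with 32 above 0. The median was 0.020 without control pool 1, 0.022 without Dot1l(fl/fl) pool 3 and 0.021 with the length and GC offset. Atg12 had all pools above controls and Map1lc3b and Wipi2 all below, where 5.03% and 5.25% of all genes did. The fold changes ran from -0.17 (Tfeb) to 0.18 (Ppt1, a thioesterase that removes fatty acids from proteins). Ppt1 was 0.08 without control pool 3, 0.10 without Dot1l(fl/fl) pool 1 and 0.28 without control pool 2. DESeq2 called 3 genes on all 9 libraries and 8 on these genotypes alone, none of them a member. With pool number as a replicate block, edgeR called 3 genes, no member among them, and 1 member had an unadjusted p-value under 0.05, Ppt1 (0.19, unadjusted p = 0.0114, adjusted p = 0.999). Leaving out 1 pool gave at most 2 members under an unadjusted p-value of 0.05: Tfeb (lower) without Dot1l(fl/fl) pool 1, Ppt1 (higher) without control pool 2, and Map1lc3a and Ppt1 (higher) without Dot1l(fl/fl) pool 3.

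The direct comparison of Dot1l(fl/fl) with Dot1l(fl/+) tests the difference between the floxed genotypes. Most members were lower with 2 floxed alleles: 17 of 45 were above 0, with a median of -0.058 (-0.024 without Dot1l(fl/fl) pool 2), or 11 of 45 above 0 with the length and GC offset, against 50.5% and 0.0015 over all genes. By an unadjusted edgeR p-value under 0.05, 2 members were lower, Map1lc3a (-0.24 ± 0.09, unadjusted p = 0.0193) and Ctsl (-0.13 ± 0.06, unadjusted p = 0.0434), and 0 were higher, beside 2.87% and 3.6% of all genes. None passed the adjusted threshold in edgeR (lowest adjusted p of a member 0.726), as was true of all genes (0%), while DESeq2 called 11 genes on all libraries and 8 on these genotypes, no member among them. With the replicate block edgeR called 3 genes, none a member, and Ppt1 (0.22, unadjusted p = 0.0047, adjusted p = 0.558) was higher by the unadjusted rule beside Map1lc3a and Ctsl. By that rule in the fit without the block, the 6 choroid plexus markers were all lower in Dot1l(fl/fl). Also lower were 5 of 10 oligodendrocyte markers, 5 of 10 dopamine neuron markers and the 3 hypothalamus markers tested. Of 7 neuron markers and 5 blood markers, 1 each was higher. Of the microglia, astrocyte and endothelial markers, 0 passed. The part of these cells in the members' values was not tested. Map1lc3a was no longer under 0.05 without pool 3 of Dot1l(fl/+) (-0.21) or pool 3 of Dot1l(fl/fl) (-0.14), nor with the length and GC offset (-0.14). Ctsl was no longer under 0.05 without control pool 1 or 2 (-0.13 each), Dot1l(fl/+) pool 2 (-0.085), or Dot1l(fl/fl) pool 1 (-0.10) or 3 (-0.11), nor with DESeq2 or with edgeR on these genotypes alone. The number was 6 without Dot1l(fl/+) pool 1 and 5 without Dot1l(fl/+) pool 2. The medians of the autophagosome and lysosome genes were alike, -0.055 and -0.059, and leaving out Dot1l(fl/fl) pool 2 brought them to -0.032 and -0.018, while the former was -0.031 without Dot1l(fl/+) pool 1 and -0.029 without Dot1l(fl/+) pool 3.

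Further genes of the route were taken from lists of symbols. Of 30 further autophagosome genes, 12 were above 0 in Dot1l(fl/+) (median -0.0047), with 1 higher and 3 lower by an unadjusted p-value under 0.05, and none adjusted; over all genes, 8.39% were under 0.05 in this comparison, 3.93% in Dot1l(fl/fl) against controls and 6.48% between the floxed genotypes, and the genes named here are given as examples only. Vmp1, an ER membrane protein needed for autophagosome growth, was the higher one (log2 fold change 0.12). Among the lower were Stx17, the SNARE that fuses autophagosomes with lysosomes (-0.18, unadjusted p = 0.00935), and Rb1cc1, the scaffold FIP200 of the ULK1 complex (-0.13). With 2 floxed alleles, Atg4c was higher (0.14, unadjusted p = 0.0433), and against Dot1l(fl/+) Wdr45, Atg4c and Stx17 were higher and Vcp and Vmp1 lower by the same rule.

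Of 22 lysosome regulators, 9 were above 0 in Dot1l(fl/+) (median -0.0044), with Lamtor2, part of the Ragulator that anchors mTORC1 (0.18), higher and Fnip1, a partner of folliculin (-0.19, unadjusted p = 0.0095), lower by an unadjusted p-value under 0.05, or 9.09% of the list against 8.39% of all genes. Of 49 further lysosome genes, 26 were above 0 in Dot1l(fl/+), with a median of 0.00091, 4 higher and 1 lower, or 10.2% of the list. The higher ones included Lgmn, an asparagine endopeptidase (0.19, unadjusted p = 0.0043), and Ctsf (0.14), and the lower one was the sulfatase gene Ids (-0.12). In Dot1l(fl/fl), 32 of these 49 were above 0 with a median of 0.034, as for the lysosome members, and their summed CPM was above all controls in every pool. By an unadjusted p-value under 0.05, 3 (6.12%, against 3.93% of all genes) were higher, among them Gnptab, which makes the mannose 6-phosphate tag of lysosomal enzymes (0.12), and the sulfatase gene Arsb (0.14). Against Dot1l(fl/+), Ostm1 (0.21, unadjusted p = 0.0048 in edgeR), Ids and Arsb were higher by the same rule, or 6.12% of the list against 6.48% of all genes.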

How the data were processed

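RNA of dissected P180 midbrain was sequenced by the authors from directional libraries. The submitters' processing notes name bcl2fastq 2.17, Trimmomatic 0.30, DESeq2 1.10.1 and build GRCm38.p4; aligner, counting tool and annotation are not given in the sources used here. The authors deposited raw counts per Ensembl gene for each library. Their deposited comparisons (DESeq2 fold changes and p-values) were not used. Of 47729 identifiers, 47310 had a gene in GENCODE M21, with 99.9% of counts.

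Counts were analysed with edgeR 4.0.16 in R 4.3.3 (filterByExpr, TMM, quasi-likelihood test, 1 fit of 9 libraries with genotype as the factor, Benjamini-Hochberg over 17671 genes). TMM factors were 0.988 to 1.01 and the common biological coefficient of variation 8.81%. CPM use TMM; SE is of the log2 fold change. Alternatives were DESeq2 1.42.0, other normalization, samples and filters (10 counts in every library), a replicate block, a length and GC offset, and leaving out each library. The steps were tested on simulated counts with the same biological coefficient of variation for every gene. The planted changes were larger than any member's fold change. That test cannot tell whether differences as small as those described would be found. P-values set the difference between genotypes against the spread between pools, as estimated in the fit of 9 libraries. The reported fit has no term for pool number. The study's methods describe the pools as paired across genotypes by litter, and pool numbers were taken to mark these sets: the 9 correlations between same-numbered pools, as deviations from genotype means, were positive (0.022 to 0.32). Printed with values per pool are members with an unadjusted p-value under 0.05 in any comparison, without overlap with controls, among the 3 highest per arm, or key members (Tfeb, Ulk1, Becn1, Sqstm1, Map1lc3a, Map1lc3b, Lamp1, Ctsd, Grn); others are given by range, and Ppt1, Ctsb and further members named outside this rule were chosen after their values were seen. Other pathway genes are named by an unadjusted p-value under 0.05, at most 6 a list. The members and lists were chosen with earlier results of these data known.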

Additional observations from a re-analysis of the deposited data

Results flagged for a closer look

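Wipi2, which recruits the conjugation machinery to the forming autophagosome, lay on opposite sides of the controls in the floxed genotypes: all 3 Dot1l(fl/+) pools were above and all 3 Dot1l(fl/fl) pools below the 3 control pools. The log2 fold change of Dot1l(fl/fl) against Dot1l(fl/+) was -0.094 ± 0.04 (unadjusted p = 0.0503, adjusted p = 0.768 in edgeR), and over 18 alternatives it ran from -0.11 to -0.079, with an unadjusted p-value under 0.05 in 3 of them.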

How the results depend on the processing

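In Dot1l(fl/+) against Dot1l(+/+), edgeR called 0 genes, as it did with DESeq2 size factors, 10 counts in every library, the replicate block and the length and GC offset, while other settings called 7 (DESeq2 on all 9 libraries), 45 (DESeq2 on the 2 genotypes), 1 (edgeR on the 2 genotypes) and 251 (no filter on low counts); without 1 library the calls ran from 0 to 5 (most without Dot1l(fl/+) pool 2), the members with an unadjusted p-value under 0.05 from 1 to 11, and the lysosome median from 0.039 to 0.090. In Dot1l(fl/fl) against Dot1l(+/+) the same 4 settings called 3, 8, 4 and 118 genes and the replicate block, with or without the length and GC offset, 3; 1 member had an unadjusted p-value under 0.05 without the filter and in both block settings (Ppt1 each time). Without 1 library the calls ran from 0 to 4 (most without Dot1l(fl/+) pool 2 or 3), the members from 0 to 2, and the autophagosome median from -0.034 to 0.013. In Dot1l(fl/fl) against Dot1l(fl/+), DESeq2 called 11 genes on all libraries and 8 on the 2 genotypes, the fit without a filter 164 genes and 4 members under an unadjusted p-value of 0.05, and the replicate block 3 genes, or 4 with the length and GC offset; without 1 library, calls ran from 0 to 12 (most without Dot1l(fl/+) pool 2), members from 1 to 6, the autophagosome median from -0.059 to -0.029 and the lysosome median from -0.065 to -0.018. A member passed the adjusted threshold only without the filter and in DESeq2 on the 2 genotypes (Map1lc3a, Dot1l(fl/+) against controls). The cause of these shifts was not tested.

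The members given per pool for a low p-value or for lack of overlap kept their direction in all 18 alternatives, but the length and GC offset brought Map1lc3a in Dot1l(fl/fl) against Dot1l(fl/+) from -0.24 to -0.14 (unadjusted p = 0.0704 in edgeR), and in Dot1l(fl/+) against controls it left 4 of the 6 members under an unadjusted p-value of 0.05 (Gabarapl1 and Ctsd dropped out; Atg3, Npc1 and Ctsb came in). The replicate block, over pools paired by litter, gave 7, 1 and 3 members with an unadjusted p-value under 0.05 in the 3 comparisons and changed no member's adjusted call; the sources name the pairing but do not say that the pool number marks it, and same-numbered pools correlated above 0.1 for numbers 1 and 2 only. The standard error of a member's log2 fold change had a median of 0.060, so most of the differences described lie within 2 standard errors of 0.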

Other observations

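Among the members are 5 genes whose inherited loss causes neuronal ceroid lipofuscinosis, a storage disease with lipofuscin in neurons: Ppt1, Tpp1, Cln3, Ctsd and Grn. This grouping was made after their values were seen and has no test. In Dot1l(fl/fl) against controls their log2 fold changes were 0.18, -0.0040, 0.09, 0.03 and 0.06, and in Dot1l(fl/+) -0.03, -0.03, 0.07, 0.16 and -0.05. Ppt1 had 154, 168 and 128 CPM in control pools, 149.8, 159.8 and 129.8 in those of Dot1l(fl/+), and 189, 167 and 154 in those of Dot1l(fl/fl). Pool 3 was the lowest of each genotype, so that the groups overlapped, while Dot1l(fl/fl) was above Dot1l(fl/+) in 3 of 3 pairs of same-numbered pools and above controls in 2 of 3, and the log2 fold change of Dot1l(fl/fl) against Dot1l(fl/+) was 0.22 ± 0.10 (unadjusted p = 0.0534, adjusted p = 0.770 in edgeR), or 0.22 with the replicate block (unadjusted p = 0.0047, adjusted p = 0.558 in edgeR), and 0.13 and 0.14 without Dot1l(fl/fl) pool 1 and Dot1l(fl/+) pool 3. Ppt1 shares exon bases with the antisense gene Cap1, at 191 CPM, and reads of these neighbours may not have been kept apart.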
